A study of Mus musculus with 18 samples.

Results

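Messenger RNA of 10 genes of extracellular proteolysis was followed in mouse macrophages: the matrix metalloproteinase genes Mmp8, Mmp9, Mmp12, Mmp13, Mmp14 and Mmp19, the metalloproteinase inhibitor genes Timp1 and Timp2, and the disintegrin metalloproteinase genes Adam8 and Adam17. They were chosen by symbol, from the symbol that the annotation gives each Ensembl gene ID, and are 10 of 56953 gene IDs in the count table. All 10 passed the filter on low counts and are among the 13068 genes tested. The cells were bone marrow-derived macrophages (BMDM), grown for 7 days in RPMI with 20% fetal bovine serum and 30% conditioned supernatant of L929 cells, a source of macrophage colony stimulating factor. The T169A groups came from knock-in mice whose kinase RIPK1 carries T169A, a change of threonine to alanine; the B6 groups came from C57BL/6J mice. Each genotype was given LPS/5z7 or LPS for 2 hours, or was left unstimulated, with 3 libraries in each of the 6 groups. LPS is lipopolysaccharide, the bacterial ligand of Toll-like receptor 4, and 5z7 is a common short name, not spelled out in the labels, of (5Z)-7-oxozeaenol, which blocks the kinase TAK1. Gene counts do not show a single amino acid change, so the allele of each library was not checked. Neither the zygosity of the knock-in nor the dose of LPS or 5z7 is given in the sources used here.

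Matrix metalloproteinases (MMPs) are zinc enzymes that are made as inactive precursors, most of them secreted and some tied to the membrane, and that together cut most proteins of the extracellular matrix. ADAM proteases sit in the plasma membrane and shed the outer parts of cytokines, receptors and adhesion molecules; ADAM17 releases tumour necrosis factor. Tissue inhibitors of metalloproteinases (TIMPs) bind the active site of MMPs. In macrophages, transcription of several MMP genes follows Toll-like receptor signals, and TAK1 stands upstream of the MAP kinase and NF-kB pathways that carry these signals.

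The 18 libraries held 14645076 to 30425934 counts, and are named by group and by the running number of their column. Levels are in CPM, read counts scaled to a common library size after TMM, changes are log2 fold changes ± SE, and a gene is called where the adjusted p of edgeR's quasi-likelihood test is under 0.05. Whether replicate libraries stem from different mice or dishes is not in the labels, so p-values measure the spread between these libraries. Library 7 stood furthest from its own group, unstimulated B6 (chi-square over degrees of freedom of 81.3 and 101 against libraries 1 and 4), and member calls lost or gained without a library are given beside each result. TMM factors were 1.24 to 1.28 in unstimulated and 0.83 to 0.86 in LPS libraries. Scaling by library size alone moved the median of all genes by −0.58 in T169A and −0.59 in B6 for LPS against unstimulated, by 0.16 in each genotype for LPS/5z7 against LPS, and by −0.42 in T169A and −0.43 in B6 for LPS/5z7 against unstimulated, so a direction here means higher or lower than most genes moved. All 9 macrophage markers were tested and summed to 32100 to 45000 CPM. Of 10 neutrophil markers 6 were tested. Ly6g had 0 to 3 counts, Elane 0 to 4, Cxcr2 0 to 8, Retnlg 0 to 20 and Mpo 0 to 21. S100a9 had 167 to 665 counts, Ngp 146 to 542, S100a8 130 to 422, Ltf 75 to 366 and Camp 15 to 76. Of 8 fibroblast markers 4 were tested, and all 8 summed to 3.72 to 17.4 CPM. Dcn and Thy1 had 0 to 4 counts, Pdgfra 0 to 5 and Lum 0 to 1. Col1a2 had 42 to 161 counts, Pdgfrb 10 to 186, Col1a1 11 to 89 and Col3a1 6 to 44. Counts in bulk cultures do not tell fewer cells of a type from less RNA per cell.

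The sequences just before the annotated start are shown for 4 members with unlike responses: Mmp13 and Timp1, which 5z7 lowered in both genotypes, and Mmp14 and Adam17, which LPS raised and which were not called lower with 5z7. They are the 250 bases before the start in RefSeq's promoter table on GRCm38.p6, an older build than that of the counts, and run 5′ to 3′ along the gene. Capitals mark the AP-1 motif TGANTCA, the TATA box TATAAA and the ETS motif AGGAAG, each searched on both strands.
Mmp13 (chr9:7272264-7272513, plus strand): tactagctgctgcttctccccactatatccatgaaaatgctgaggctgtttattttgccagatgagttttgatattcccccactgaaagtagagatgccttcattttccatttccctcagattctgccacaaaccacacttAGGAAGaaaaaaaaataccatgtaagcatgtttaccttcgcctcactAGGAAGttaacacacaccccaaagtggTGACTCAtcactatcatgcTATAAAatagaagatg
Timp1 (chrX:20869916-20870165, plus strand): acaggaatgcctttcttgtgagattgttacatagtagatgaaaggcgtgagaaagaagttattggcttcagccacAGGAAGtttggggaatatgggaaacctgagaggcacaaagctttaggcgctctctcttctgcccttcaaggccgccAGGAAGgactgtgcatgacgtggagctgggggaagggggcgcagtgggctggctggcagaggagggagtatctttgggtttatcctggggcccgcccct
Mmp14 (chr14:54431348-54431597, plus strand): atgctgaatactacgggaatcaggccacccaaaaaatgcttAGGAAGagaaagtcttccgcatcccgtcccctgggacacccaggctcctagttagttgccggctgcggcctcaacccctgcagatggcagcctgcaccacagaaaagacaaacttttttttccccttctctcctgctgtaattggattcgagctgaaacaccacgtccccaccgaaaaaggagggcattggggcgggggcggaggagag
Adam17 (chr12:21373633-21373882, minus strand): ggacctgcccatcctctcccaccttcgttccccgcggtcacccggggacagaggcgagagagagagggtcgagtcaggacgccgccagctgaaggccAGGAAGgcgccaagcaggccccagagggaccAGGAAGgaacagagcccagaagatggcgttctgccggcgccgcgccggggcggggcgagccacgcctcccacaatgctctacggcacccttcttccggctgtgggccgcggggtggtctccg
The Mmp13 window held 1 AP-1 motif, TGACTCA, starting at −35 from the annotated start, 1 TATA box at −16 and 2 ETS motifs. AP-1, the FOS and JUN dimer, is a well-known regulator of MMP genes. Among all 32851 windows, 6.75% held the AP-1 motif, 12.4% the TATA box and 29.5% the ETS motif. The Timp1 and Adam17 windows held 2 ETS motifs each and the Mmp14 window 1, and none of these 3 held the AP-1 motif, the TATA box or the NF-kB motif (7.25% of all windows), which says only that these letters were not in the window. Of the 10 members 8 had entries. Mmp12 had 2, with the AP-1 motif TGAGTCA at −44 in one and an NF-kB and an ETS motif in the other. Bases just after the annotated start were found in 2 of 7 Mmp12 transcripts for the entry with the AP-1 motif. For the entry with the NF-kB motif they were found in 0 of 7. Mmp8 held 1 ETS motif, and Adam8 and Timp2 none of the 4 motifs. The motifs do not overlap one another.

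The first comparison asked what LPS changed within 2 hours. Of the 10 genes, 7 rose and 1 fell in T169A, and 7 rose and 1 fell in B6 (edgeR). Over all genes tested, 30.3% were called higher and 31.5% lower in T169A, and 29.6% higher and 33.5% lower in B6. Mmp13, Mmp14, Timp1, Adam17, Mmp9, Mmp12 and Adam8 were the genes called higher and Timp2 the gene called lower, in each genotype. Mmp13, Mmp14 and Timp1 rose at least 2-fold in both genotypes, as did 14.2% of all genes in T169A and 14.5% in B6. The median log2 fold change of the 10 was 0.79 in both genotypes, against −0.03 over all genes in T169A and −0.07 in B6. With library size alone 4 members were called higher and 3 lower in T169A, and 4 higher and 4 lower in B6. Of all 13068 genes that scaling called 1934 higher and 8106 lower in T169A, and 1996 higher and 8484 lower in B6. Mmp13, Mmp14, Timp1 and Adam17 were not among the genes whose call or direction changed with that scaling.

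**Figure D1:**
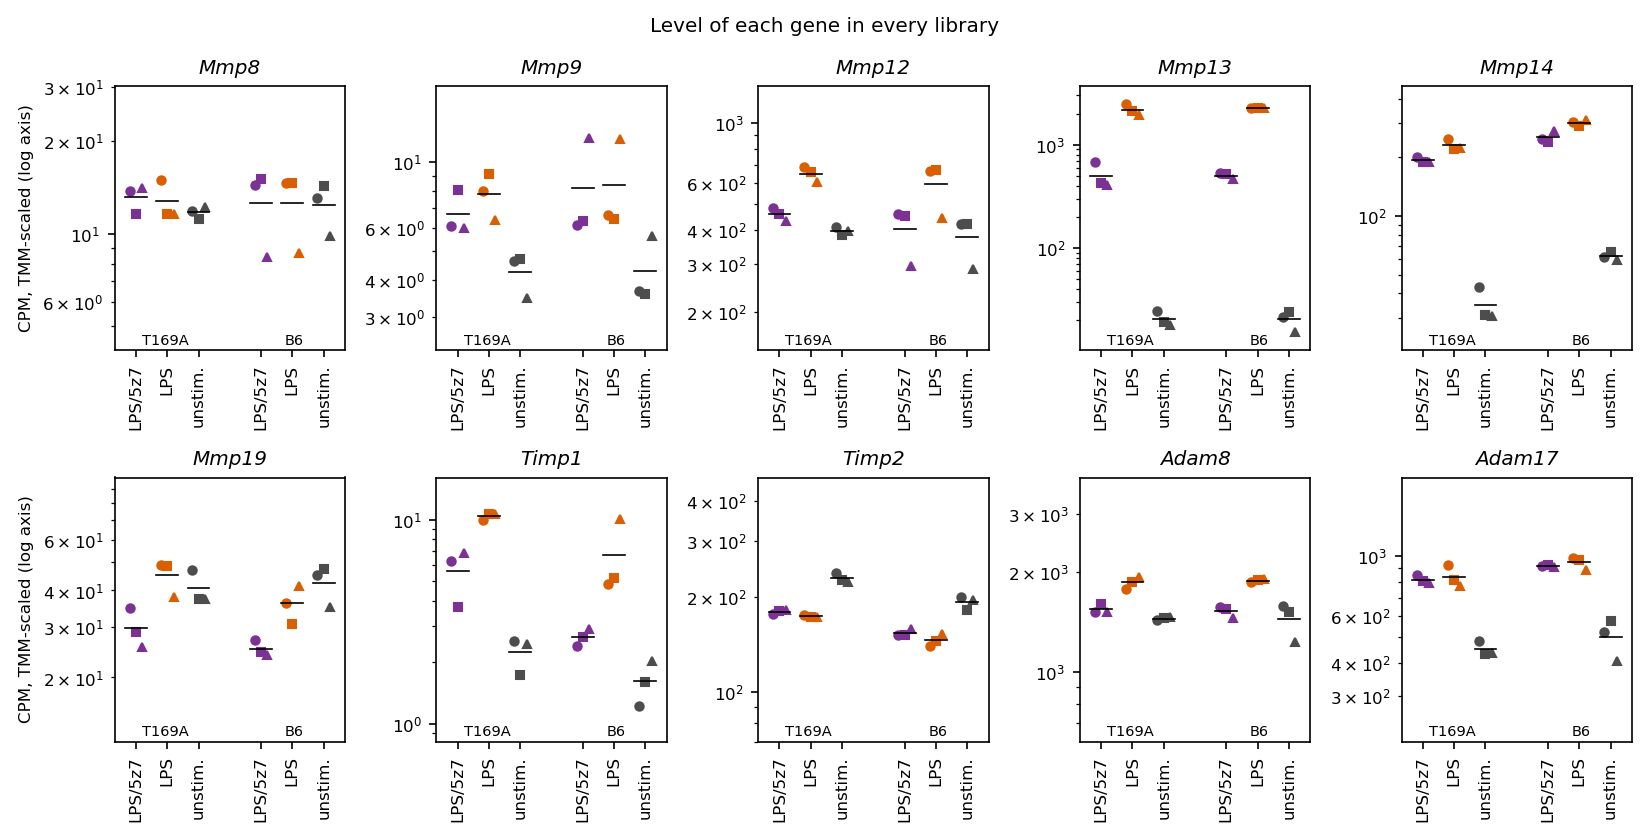
CPM (log axis, a range of its own in each panel) of each gene in every library, with T169A on the left and B6 on the right of a panel and LPS/5z7, LPS and unstimulated from left to right. Symbols are single libraries (circle, square and triangle in ascending running number) and bars are group means; Mmp13 spans 15.5 to 2460 CPM, and the triangles of B6 (libraries 7, 8 and 9) lie apart from the other B6 symbols for Mmp8, Mmp9 and Mmp12.

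The second comparison asked what 5z7 changed in cells given LPS; it shares the LPS libraries with the first. None of the 10 genes rose in either genotype (0 at an unadjusted p under 0.05 in edgeR, and 0 with DESeq2). In T169A 3 fell, where 6.5% of all genes were called higher and 6.53% lower; in B6 5 fell, where 7.03% were called higher and 6.79% lower. Mmp13, Timp1 and Mmp19 fell in both genotypes, and Mmp12 and Adam8 were called in B6 alone. Their sizes in T169A were −0.50 for Mmp12 and −0.27 for Adam8, beside −0.56 and −0.30 in B6. For neither gene was the 5z7 effect called different between the genotypes (edgeR). With libraries of 3 neighbouring running numbers as a replicate block, 5 members were called lower in each genotype. With that block 1174 of all 13068 genes were called lower in T169A and 1211 in B6. At an unadjusted p under 0.05 in edgeR, 6 members were lower in each genotype. Of all 13068 genes 3226 in T169A and 3364 in B6 passed in either direction, and the number lower alone is not given here. The median of the 10 was −0.26 in T169A and −0.27 in B6, against 0.02 over all genes in each. With any of the 6 libraries left out, 2 or 3 members were called in B6: 2 without LPS library 2 or LPS/5z7 library 3, 6 or 9, and 3 without LPS library 5 or 8. In T169A 2 were called without LPS library 14 or 17 or LPS/5z7 library 15 or 18. With library size alone Timp2 was called higher (0.20 in T169A and 0.24 in B6), beside 3 members lower in T169A and 2 in B6. Of all 13068 genes that scaling called 2177 higher and 530 lower in T169A, and 2339 higher and 516 lower in B6.

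**Figure D2:**
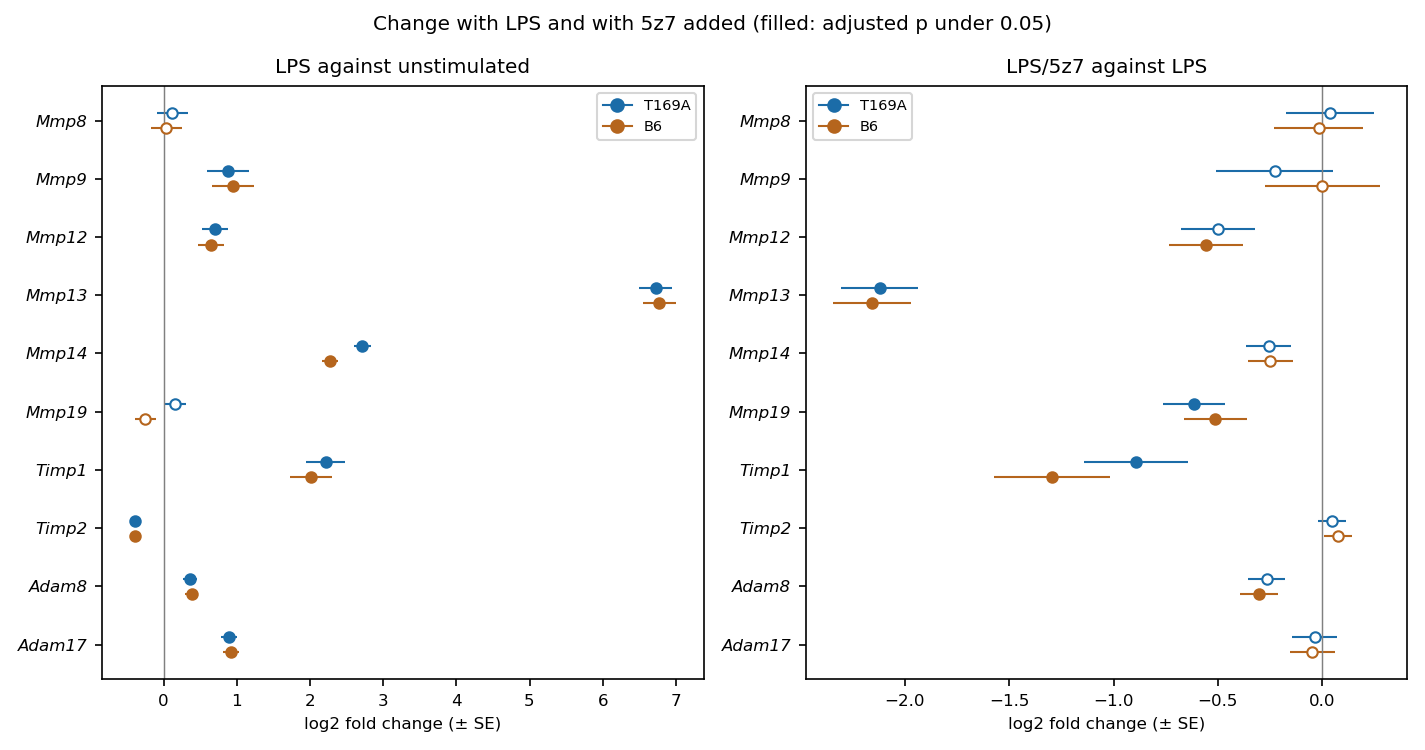
Log2 fold change ± SE of each gene with LPS against unstimulated (left) and with LPS/5z7 against LPS (right), T169A above B6, each from 3 against 3 libraries; filled points have an adjusted p under 0.05. Mmp13 stands at 6.72 and 6.77 with LPS and at −2.12 and −2.16 with 5z7 added, while Adam17 lies near 0 in the right panel.

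Mmp13 encodes a collagenase that cleaves the triple helix of fibrillar collagens, the main interstitial collagenase of mice. T169A cells had 674, 424 and 407 CPM with LPS/5z7, 2460, 2130 and 1950 CPM with LPS, and 24.4, 19.4 and 18.2 CPM unstimulated. B6 cells had 530, 518 and 462 CPM with LPS/5z7, 2250, 2240 and 2250 CPM with LPS, and 21.8, 24.0 and 15.5 CPM unstimulated. The 3 conditions did not overlap in either genotype, and LPS/5z7 libraries lay between the others; T169A LPS/5z7 library 12 was the highest of its group. The rise with LPS was 106-fold in T169A (6.72 ± 0.23, adjusted p = 1.54e-13) and 109-fold in B6 (6.77 ± 0.23, adjusted p = 1.55e-13; edgeR). With 5z7 added it fell by 2.12 ± 0.19 in T169A (adjusted p = 6.29e-07) and fell by 2.16 ± 0.19 in B6 (adjusted p = 5.09e-07) on the log2 scale. Of the increase in mean CPM with LPS, 22.2 ± 4.27% (SE) was left with LPS/5z7 in T169A and 21.7 ± 0.952% in B6. Against unstimulated cells, LPS/5z7 cells were still higher by 4.6 ± 0.21 in T169A and 4.62 ± 0.21 in B6.

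Mmp8, which encodes the collagenase best known from neutrophil granules, was low and was not called in any comparison. It had 11.6 to 14.1 CPM with LPS/5z7, 11.6 to 15 CPM with LPS and 11.2 to 12.2 CPM unstimulated in T169A cells. In B6 cells the ranges were 8.38 to 15.1 CPM, 8.63 to 14.6 CPM and 9.84 to 14.3 CPM in the same order of conditions, and the lowest were LPS/5z7 library 9, LPS library 8 and unstimulated library 7. The log2 fold change with LPS was 0.12 ± 0.21 in T169A (adjusted p = 0.643, edgeR) and 0.04 ± 0.21 in B6 (adjusted p = 0.889), but −0.55 in B6 with library size alone (adjusted p = 0.0215). The 95% interval of the LPS effect ran from −0.29 to 0.54 in T169A and from −0.37 to 0.45 in B6.

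Mmp12 encodes macrophage metalloelastase, which degrades elastin. Levels in T169A were 485, 461 and 432 CPM with LPS/5z7, 685, 657 and 606 CPM with LPS, and 411, 386 and 397 CPM unstimulated. Levels in B6 were 461, 453 and 295 CPM with LPS/5z7, 662, 671 and 444 CPM with LPS, and 421, 423 and 288 CPM unstimulated. The low values in B6 were those of libraries 9, 8 and 7, and with them LPS/5z7 and LPS libraries overlapped in B6 and not in T169A. LPS raised Mmp12 by 0.71 ± 0.18 in T169A (adjusted p = 0.00239) and 0.65 ± 0.18 in B6 (adjusted p = 0.00428; edgeR). With library size alone these changes were 0.12 (adjusted p = 0.517) and 0.06 (adjusted p = 0.752). With 5z7 added Mmp12 fell by 0.56 ± 0.18 in B6 (adjusted p = 0.0475, edgeR). This call was lost without LPS library 2 or 5 or LPS/5z7 library 3, 6 or 9 (edgeR adjusted p up to 0.195, and −0.39 without library 9). It was also lost in a fit on these groups alone (edgeR adjusted p = 0.0582), with library size alone (edgeR adjusted p = 0.124) and with no filter (edgeR adjusted p = 0.0904). In T169A the change was −0.50 ± 0.18 (adjusted p = 0.0775, edgeR). It was called by DESeq2 (adjusted p = 0.0375), in a fit on these groups alone (edgeR adjusted p = 0.00593) and with the replicate block (edgeR adjusted p = 9.05e-05). The difference of the 5z7 effect between the genotypes was 0.06 ± 0.25 (adjusted p = 1, edgeR).

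Mmp9 encodes gelatinase B, which cuts denatured collagen and basement membrane collagen. The T169A libraries had 6.09, 8.04 and 6.0 CPM with LPS/5z7, 8.01, 9.13 and 6.4 CPM with LPS, and 4.62, 4.71 and 3.47 CPM unstimulated. The B6 libraries had 6.15, 6.33 and 12.1 CPM with LPS/5z7, 6.64, 6.42 and 12 CPM with LPS, and 3.68, 3.58 and 5.65 CPM unstimulated. Libraries 9, 8 and 7 were the highest of the B6 groups, and LPS libraries lay above unstimulated ones in each genotype. LPS raised Mmp9 by 0.88 ± 0.29 in T169A (adjusted p = 0.0134) and 0.95 ± 0.29 in B6 (adjusted p = 0.0085; edgeR). The call was lost with library size alone (0.30 in T169A and 0.35 in B6), in T169A without library 14 given LPS or without unstimulated library 16 (edgeR adjusted p = 0.0548 and 0.0609), and without B6 LPS library 8 (0.63, edgeR adjusted p = 0.0567). LPS/5z7 differed from LPS by −0.23 ± 0.28 in T169A (adjusted p = 0.717) and 0.00 ± 0.27 in B6 (adjusted p = 0.999; edgeR), with 95% intervals of −0.78 to 0.32 and −0.54 to 0.54. The B6 value moved with single libraries, to −0.41 without LPS/5z7 library 9 (adjusted p = 0.437) and to 0.29 without LPS library 8 (adjusted p = 0.58; edgeR).

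Mmp19, another secreted MMP gene, which is expressed in several tissues, did not pass the test with LPS and fell with 5z7. In T169A cells it had 34.7, 28.7 and 25.4 CPM with LPS/5z7, 49.2, 48.8 and 38.1 CPM with LPS, and 47.1, 37.5 and 37.4 CPM unstimulated. In B6 cells it had 27, 24.5 and 24 CPM with LPS/5z7, 36.1, 30.7 and 41.4 CPM with LPS, and 45.3, 47.3 and 35.1 CPM unstimulated. All LPS/5z7 libraries lay below those of the other conditions of their genotype. With LPS the change was 0.16 ± 0.15 in T169A (adjusted p = 0.365, edgeR) and −0.25 ± 0.15 in B6 (adjusted p = 0.159, and 0.0306 without unstimulated library 7); with library size alone it was −0.42 in T169A (adjusted p = 0.0113) and −0.84 in B6 (adjusted p = 3.75e-05). With 5z7 added Mmp19 fell by 0.61 ± 0.15 in T169A (adjusted p = 0.0114) and fell by 0.51 ± 0.15 in B6 (adjusted p = 0.0325; edgeR). The T169A call was lost without LPS/5z7 library 18 (edgeR adjusted p = 0.0661), and the B6 call without LPS library 2 or 8 or LPS/5z7 library 3, 6 or 9 (edgeR adjusted p = 0.0563 to 0.111) and with library size alone (adjusted p = 0.0937). Against unstimulated cells LPS/5z7 cells were lower, with −0.45 ± 0.15 in T169A (adjusted p = 0.016, and 0.0519 to 0.0948 without library 10, 15 or 18) and −0.76 ± 0.15 in B6 (adjusted p = 0.000379; edgeR). Exons of Mmp19 share 789 bases with Tmem198b on the opposite strand (187 to 577 counts), and the strand setting of the counting is not given in the sources used here.

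Mmp14 encodes the membrane-type MMP that cuts collagen at the cell surface and activates the precursors of MMP2 and MMP13. T169A cells had 201, 190 and 189 CPM with LPS/5z7, 248, 220 and 224 CPM with LPS, and 43.4, 31.1 and 30.7 CPM unstimulated. B6 cells had 247, 241 and 273 CPM with LPS/5z7, 304, 290 and 310 CPM with LPS, and 61.8, 65.1 and 59.7 CPM unstimulated. The 3 conditions did not overlap in either genotype, with LPS highest and unstimulated lowest. LPS raised Mmp14 6.58-fold in T169A (2.72 ± 0.12, adjusted p = 2.24e-12) and 4.84-fold in B6 (2.27 ± 0.11, adjusted p = 1.7e-11; edgeR). With 5z7 added the change was −0.26 ± 0.11 in T169A (adjusted p = 0.147) and −0.25 ± 0.11 in B6 (adjusted p = 0.155; edgeR), and it was called in B6 in a fit on these groups alone (edgeR adjusted p = 0.0336). Of the increase with LPS, 80.8 ± 4.07% (SE) was left with LPS/5z7 in T169A and 80.1 ± 4.5% in B6. Mmp13 and Mmp14 both rose with LPS, and the share of the increase left with LPS/5z7 was lower for Mmp13 by more than these errors in each genotype.

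Adam17, the gene of the sheddase of tumour necrosis factor and its receptors, rose with LPS. Levels in T169A were 851, 804 and 791 CPM with LPS/5z7, 923, 812 and 772 CPM with LPS, and 481, 430 and 436 CPM unstimulated. Levels in B6 were 915, 925 and 908 CPM with LPS/5z7, 981, 969 and 891 CPM with LPS, and 520, 572 and 407 CPM unstimulated. All stimulated libraries lay above the unstimulated ones, and LPS/5z7 and LPS libraries overlapped. The rise with LPS was 0.90 ± 0.11 in T169A (adjusted p = 1.55e-06) and 0.92 ± 0.11 in B6 (adjusted p = 1.1e-06; edgeR). LPS/5z7 differed from LPS by −0.04 in T169A (95% interval −0.25 to 0.18, adjusted p = 0.905) and by −0.05 in B6 (−0.26 to 0.16, adjusted p = 0.858; edgeR). Of the increase with LPS, 94.8 ± 12.1% (SE) was left with LPS/5z7 in T169A and 93.1 ± 5.99% in B6. Exons of Adam17 share 311 bases with Iah1 on the opposite strand (427 to 815 counts), and those of Adam8 share 46 bases with Gm16201 (45 to 142 counts).

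Adam8, which encodes a leukocyte surface protease that sheds adhesion molecules, had the highest CPM of the 10 genes in unstimulated cells. The T169A libraries had 1510, 1600 and 1520 CPM with LPS/5z7, 1780, 1870 and 1930 CPM with LPS, and 1430, 1450 and 1460 CPM unstimulated. The B6 libraries had 1570, 1550 and 1450 CPM with LPS/5z7, 1860, 1890 and 1900 CPM with LPS, and 1580, 1510 and 1230 CPM unstimulated. LPS libraries were above all others of their genotype. The rise with LPS was 0.36 ± 0.09 in T169A (adjusted p = 0.00203) and 0.39 ± 0.09 in B6 (adjusted p = 0.00118; edgeR), and it turned to −0.22 (adjusted p = 0.0356) and −0.21 (adjusted p = 0.0452) with library size alone. With 5z7 added Adam8 fell by 0.30 ± 0.09 in B6 (adjusted p = 0.0327, edgeR), a call lost with any of the 6 libraries (2, 3, 5, 6, 8 or 9) left out (adjusted p = 0.0561 to 0.0958) and with library size alone (adjusted p = 0.301). In T169A the change was −0.27 ± 0.09 (adjusted p = 0.0601, edgeR), called by DESeq2 (adjusted p = 0.00305) and in a fit on these groups alone (edgeR adjusted p = 0.0416).

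The inhibitor genes moved in opposite directions with LPS. Timp1 encodes a secreted inhibitor of most MMPs that is a weak inhibitor of MMP14, and its levels were low. In T169A cells it had 6.24, 3.74 and 6.86 CPM with LPS/5z7, 9.93, 10.7 and 10.7 CPM with LPS, and 2.56, 1.73 and 2.45 CPM unstimulated. In B6 cells it had 2.4, 2.66 and 2.91 CPM with LPS/5z7, 4.84, 5.2 and 10.1 CPM with LPS, and 1.23, 1.6 and 2.04 CPM unstimulated. The conditions did not overlap within a genotype, and B6 LPS library 8 lay far above the other B6 libraries. LPS raised Timp1 4.64-fold in T169A (2.21 ± 0.27, adjusted p = 1.5e-06) and 4.05-fold in B6 (2.02 ± 0.29, adjusted p = 9.17e-06; edgeR). With 5z7 added it fell by 0.89 ± 0.25 in T169A (adjusted p = 0.0253, edgeR) and fell by 1.29 ± 0.28 in B6 (adjusted p = 0.00471). Without B6 LPS library 8 the B6 change with LPS was 1.65 and that with 5z7 −0.95 (adjusted p = 0.0173, edgeR). The T169A call was lost without LPS library 14 or 17 (edgeR adjusted p = 0.0698 and 0.0574) or LPS/5z7 library 15 (−0.67, adjusted p = 0.132). Of the increase, 41.2 ± 11.9% (SE) was left in T169A and 20.3 ± 8.26% in B6, and the difference of the 5z7 effect between the genotypes was 0.40 ± 0.37 (adjusted p = 1, edgeR). Without B6 LPS library 8 the B6 share was 30.4% and that difference 0.05 (adjusted p = 1, edgeR); with each library left out in turn the share ran from 33.5 to 52.5% in T169A and from 17.1 to 30.4% in B6, an alternative chosen after seeing the data. Against unstimulated cells LPS/5z7 gave 1.32 ± 0.28 in T169A (adjusted p = 0.000575) and 0.72 ± 0.31 in B6 (adjusted p = 0.0581; edgeR), the last called by DESeq2 (adjusted p = 0.0464) and without unstimulated library 7 (edgeR adjusted p = 0.038). Timp1 lies within Syn1, which is on the opposite strand and shares no exon bases with it.

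Timp2 encodes an inhibitor that also takes part in the activation of the MMP2 precursor by MMP14. T169A cells had 177, 180 and 181 CPM with LPS/5z7, 175, 172 and 173 CPM with LPS, and 237, 226 and 223 CPM unstimulated. B6 cells had 152, 152 and 158 CPM with LPS/5z7, 140, 145 and 153 CPM with LPS, and 199, 182 and 195 CPM unstimulated. Unstimulated libraries were the highest of each genotype. LPS lowered Timp2 by the same size in both genotypes, −0.40 ± 0.07 (adjusted p = 6.22e-05 in T169A and 5.99e-05 in B6, edgeR). With 5z7 added the change was 0.05 ± 0.07 in T169A (adjusted p = 0.764) and 0.08 ± 0.07 in B6 (adjusted p = 0.539; edgeR). Against unstimulated cells LPS/5z7 gave −0.35 ± 0.07 in T169A (adjusted p = 0.000259) and −0.32 ± 0.07 in B6 (adjusted p = 0.00062; edgeR), and the B6 call was lost in a fit on these groups alone (edgeR adjusted p = 0.0501).

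Set against unstimulated cells, LPS/5z7 left 4 of the 10 genes higher and 2 lower in each genotype, where 28.1% of all genes were called higher and 27.5% lower in T169A, and 27.6% higher and 27.9% lower in B6. Mmp13, Mmp14 and Adam17 were higher and Timp2 and Mmp19 lower in both; Timp1 was the fourth in T169A and Mmp9 the fourth in B6. Mmp9 stood at 0.65 ± 0.29 in T169A (adjusted p = 0.0643; 0.00338 in a fit on these groups alone) and 0.95 ± 0.29 in B6 (adjusted p = 0.00986; edgeR). The B6 call of Mmp9 was lost without LPS/5z7 library 9 (0.54, edgeR adjusted p = 0.11) and with library size alone (adjusted p = 0.115). Mmp12 stood at 0.21 ± 0.18 in T169A (adjusted p = 0.34; 0.0265 in a fit on these groups alone) and 0.10 ± 0.18 in B6 (adjusted p = 0.68; edgeR). Adam8 stood at 0.10 ± 0.09 in T169A (adjusted p = 0.382) and 0.08 ± 0.09 in B6 (adjusted p = 0.449; edgeR), and at −0.33 and −0.34 with library size alone.

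Levels of different genes were set side by side per kb of merged exons (CPM per kb, mean ± SD of 3 libraries). With LPS in T169A cells the order was Mmp13 (817 ± 96.6), Adam8 (401 ± 16.7), Adam17 (117 ± 11), Mmp12 (89.8 ± 5.54), Timp2 (44.6 ± 0.39), Mmp14 (38.7 ± 2.53), Mmp19 (12.8 ± 1.78), Timp1 (11.7 ± 0.479), Mmp8 (5.26 ± 0.819) and Mmp9 (2.22 ± 0.388). In unstimulated T169A cells Adam8 (312 ± 3.65) came first and Mmp13 (7.74 ± 1.24) followed Adam17, Timp2, Mmp12 and Mmp19. Mmp13 was the most abundant of the 10 per kb with LPS and not without it, in B6 as well (840 ± 2.28 with LPS and 7.64 ± 1.63 unstimulated). Mmp19 and Timp1 with LPS in T169A lay within their SDs of each other.

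The third comparison asked whether T169A differed from B6 in the same condition. Mmp14 was the only member called: in unstimulated cells it stood at 35.1 ± 7.23 CPM in T169A and 62.2 ± 2.70 CPM in B6 (−0.83 ± 0.11, edgeR adjusted p = 0.000881), where 0.0765% of all genes were called higher and 0.138% lower. The call held with each of the 6 libraries left out and was lost in a fit on these groups alone (edgeR adjusted p = 0.403). With LPS the T169A libraries of Mmp14 also lay below all B6 libraries (−0.38 ± 0.11, adjusted p = 0.357), as they did with LPS/5z7 (−0.39 ± 0.11, adjusted p = 0.364, and 0.0205 in a fit on these groups alone; edgeR). With LPS and with LPS/5z7 no member was called by edgeR, where 0.222% and 0.161% of all genes were called. At an unadjusted p under 0.05, 3 members were higher and 1 lower with LPS, and 2 higher and 1 lower with LPS/5z7, where 729 and 766 of all genes passed in either direction. DESeq2 called 1 member higher in each of these conditions, Timp2. Libraries of the genotypes did not overlap for 2 members unstimulated, 2 with LPS and 4 with LPS/5z7, where 8.48%, 10.5% and 23.2% of all genes did not overlap.

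Timp2 libraries lay above all B6 libraries in T169A in the 3 conditions, by 0.25 ± 0.07 unstimulated (adjusted p = 0.288), 0.25 ± 0.07 with LPS (adjusted p = 0.291) and 0.22 ± 0.07 with LPS/5z7 (adjusted p = 0.484; edgeR). DESeq2 called all 3 (adjusted p = 0.000219, 0.00265 and 0.0225). Timp1 had non-overlapping libraries with LPS/5z7, at 5.61 ± 1.65 CPM in T169A and 2.66 ± 0.258 CPM in B6 (1.08 ± 0.28, edgeR adjusted p = 0.267, and 0.0363 in a fit on these groups alone). Mmp13 was close in the genotypes, with differences of 0.01 ± 0.19 unstimulated, −0.04 ± 0.18 with LPS and 0.00 ± 0.18 with LPS/5z7, and 95% intervals within −0.39 and 0.38. None of the 10 genes had a treatment effect called different between the genotypes (edgeR). At an unadjusted p under 0.05 this number was 1 for the LPS effect, 0 for the 5z7 effect and 1 for the LPS/5z7 effect against unstimulated, and DESeq2 called 0 in each. The gene was Mmp14 in both cases, with 0.44 ± 0.16 for the LPS effect (adjusted p = 0.916, edgeR). Over all genes edgeR called 0 in each of these 3 tests, with 421, 151 and 461 at an unadjusted p under 0.05, and DESeq2 called 0, 0 and 2.

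**Figure D3:**
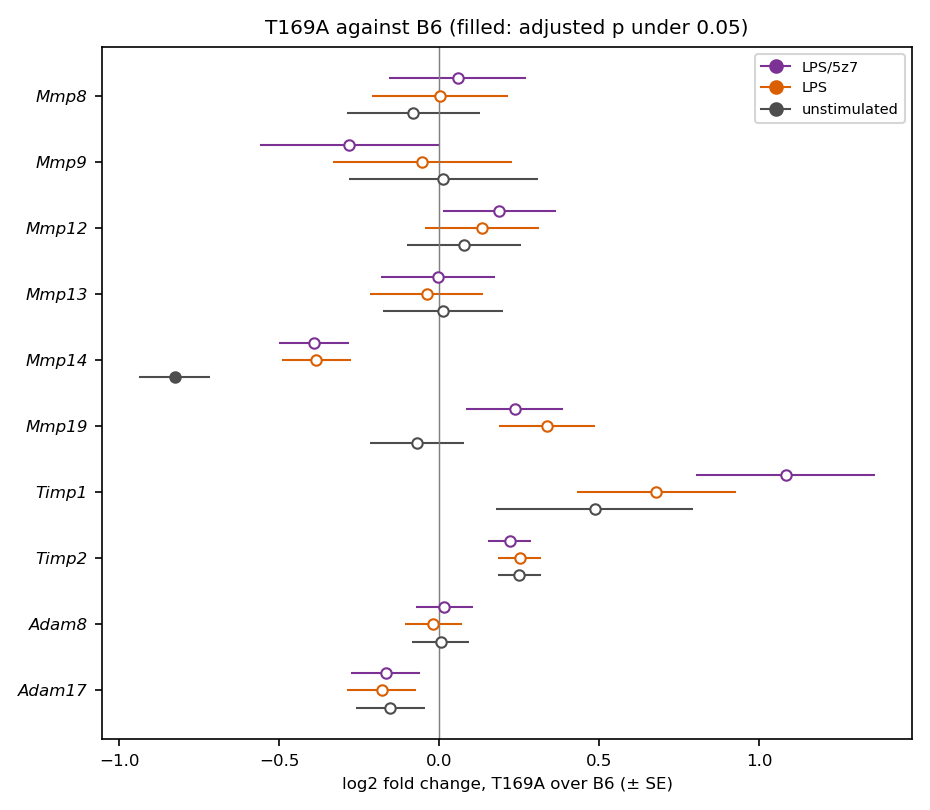
Log2 fold change ± SE of T169A over B6 for each gene in the 3 conditions (3 against 3 libraries), with LPS/5z7 above LPS above unstimulated. The filled point is Mmp14 in unstimulated cells at −0.83; its other points lie at −0.39 and −0.38, and those of Timp2 at 0.22 to 0.25.

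Mmp13, Mmp12 and Mmp8 belong to a run of 10 MMP genes on chromosome 9 with no other protein-coding gene between its ends, in RefSeq's order. Mmp10, the stromelysin gene that lies between Mmp12 and Mmp8 in this run, had 1.79 ± 0.357 CPM with LPS/5z7, 7.48 ± 1.25 CPM with LPS and 0.284 ± 0.113 CPM unstimulated in T169A cells. Levels in B6 were 1.44 ± 0.428, 6.51 ± 1.55 and 0.224 ± 0.0553 CPM in these conditions. It rose by 4.69 ± 0.30 in T169A and 4.75 ± 0.31 in B6 with LPS, and fell by 2.07 ± 0.24 in T169A (adjusted p = 1.28e-05) and fell by 2.17 ± 0.25 in B6 (adjusted p = 1.2e-05; edgeR) with 5z7. These sizes stand beside −2.12 and −2.16 for Mmp13. Mmp27, next to Mmp8, was not called with LPS (−0.08 ± 0.13 in T169A and −0.26 ± 0.13 in B6). Mmp1b, Mmp3 and Mmp1a were below the filter, with at most 14 counts in a library, and Mmp20 and Mmp7 had none in any library. Outside the run, Dcun1d5, the neighbour of Mmp13, rose by 1.35 ± 0.12 in T169A and 0.99 ± 0.12 in B6 with LPS, and was not called with 5z7 (−0.26 ± 0.11 in T169A, adjusted p = 0.162, and −0.25 ± 0.11 in B6, adjusted p = 0.178; edgeR). Tmem123, the neighbour at the other end, rose by 0.75 ± 0.10 in T169A and 0.83 ± 0.10 in B6 with LPS, and rose by 0.44 ± 0.10 (adjusted p = 0.00531) and 0.42 ± 0.10 (adjusted p = 0.00694; edgeR) with 5z7.

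**Figure D4:**
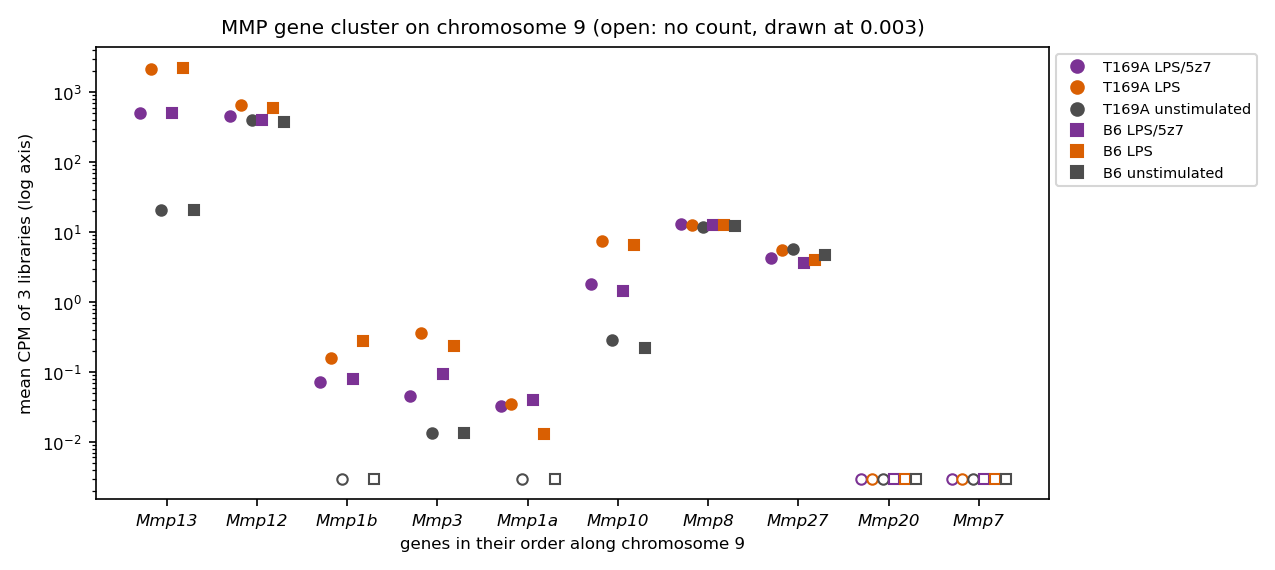
Mean CPM (log axis) of the MMP genes in their order along chromosome 9, circles for T169A and squares for B6, purple for LPS/5z7, orange for LPS and grey for unstimulated; open symbols mark groups with no count. Mmp13 and Mmp10 show the widest spread between the colours among the genes tested, while Mmp12, Mmp8 and Mmp27 stay within a narrow band.

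Likeness to other genes was described for the 3 members with the widest range of group means, by Pearson's r of log2 CPM over the 18 libraries, which share treatment and depth. Mmp13, with a range of 6.80, was closest to Ezr (0.998), the gene of the membrane linker ezrin, Gm6377 (0.997) and Tiparp (0.996). Mmp14, with a range of 3.12, was closest to Tarm1 (0.992), Cav1 (0.99) and Clec5a (0.99), a myeloid receptor gene. Timp1, with a range of 2.64, was closest to Il4ra (0.945), a receptor gene for interleukin-4 and interleukin-13, Tubb6 (0.941) and P2ry6 (0.937). The candidates were genes with at least 10 CPM on average.

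Other genes of the same families and their partners were described by list. The counts of all 5 lists stand beside these shares of all genes. With LPS, 30.3% were called higher and 31.5% lower in T169A, and 29.6% higher and 33.5% lower in B6. With 5z7, 6.5% were called higher and 6.53% lower in T169A, and 7.03% higher and 6.79% lower in B6. Of 17 other MMP genes 6 were tested, and 3 rose and 1 fell with LPS in each genotype. Mmp25, a membrane-anchored MMP gene known from leukocytes, had 7.29 ± 0.826 CPM with LPS in T169A against 0 to 4 counts per unstimulated library, and 9.32 ± 1.95 CPM with LPS in B6 against 0 to 3 counts. It fell with 5z7 by 0.86 ± 0.23 in T169A (adjusted p = 0.0176) and by 1.24 ± 0.22 in B6 (adjusted p = 0.00122; edgeR). Mmp11 was the gene that fell with LPS, at 2 to 22 counts per library without 5z7. With 5z7 it rose by 1.58 ± 0.45 in B6 (adjusted p = 0.0273) and stood at 1.01 ± 0.42 in T169A (adjusted p = 0.141; edgeR). With 5z7, 0 of the other MMP genes rose and 2 fell in T169A, and 1 rose and 2 fell in B6. Of 11 other ADAM genes 6 were tested; 1 rose and 5 fell in T169A, and 1 rose and 3 fell in B6, with none called for 5z7 in edgeR. Adam10, the sheddase closest to ADAM17, had 199 ± 19.4 CPM with LPS and 256 ± 6.13 CPM unstimulated in T169A, and 214 ± 25.9 CPM with LPS and 254 ± 55.9 CPM unstimulated in B6. Adam19 fell by 1.32 ± 0.18 in T169A and fell by 1.19 ± 0.18 in B6 with LPS. Adam9 rose by 0.34 ± 0.09 and 0.46 ± 0.09, which is less than the shift of −0.58 and −0.59 that library size alone gives, so its direction rests on the scaling.

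Of 21 ADAMTS and ADAMTS-like genes 7 were tested. With LPS 2 rose and 1 fell in T169A, and 2 rose and 2 fell in B6. Over all genes, 30.3% were called higher and 31.5% lower in T169A, and 29.6% higher and 33.5% lower in B6. Adamts4, the gene of an aggrecanase, had 112 ± 7.31 CPM with LPS/5z7, 146 ± 6.2 CPM with LPS and 1 to 3 counts per unstimulated library in T169A. In B6 it had 110 ± 10.8 CPM with LPS/5z7, 131 ± 8.01 CPM with LPS and 1 to 3 counts per unstimulated library. Adamts10 fell with LPS in both genotypes (−1.52 ± 0.14 in T169A and −1.39 ± 0.14 in B6). With 5z7, 2 of these genes fell in T169A, Adamts4 (−0.39 ± 0.09, adjusted p = 0.00854) and Adamts6 (−1.27 ± 0.40, adjusted p = 0.0463; edgeR). In B6 none was called, with Adamts4 at −0.25 ± 0.09 (adjusted p = 0.09, edgeR).

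Of 18 genes for inhibitors, activators and maturation partners 12 were tested. With LPS 5 rose and 3 fell in T169A, and 6 rose and 3 fell in B6. The shares over all genes were 30.3% higher and 31.5% lower in T169A, and 29.6% higher and 33.5% lower in B6. Rhbdf2 encodes iRhom2, which carries ADAM17 to the cell surface in macrophages. It had 316 ± 14.6 CPM with LPS/5z7, 537 ± 18.7 CPM with LPS and 80.3 ± 4.33 CPM unstimulated in T169A, and 310 ± 37.0, 526 ± 69.3 and 77.0 ± 8.67 CPM in these conditions in B6. It rose by 2.74 ± 0.12 in T169A and 2.77 ± 0.12 in B6 with LPS, and fell by 0.77 ± 0.11 (adjusted p = 0.000138) and fell by 0.76 ± 0.11 (adjusted p = 0.000155; edgeR) with 5z7. Tspan14, a tetraspanin gene, fell by 1.30 ± 0.09 in T169A and fell by 1.32 ± 0.09 in B6 with LPS, and Tspan33, another, rose by 1.03 ± 0.11 and 1.13 ± 0.11 with 5z7. Furin, the protease that removes the inhibitory part of ADAM17 and MMP14, had −0.43 ± 0.14 in T169A with 5z7 (adjusted p = 0.0578) and fell by 0.44 ± 0.14 in B6 (adjusted p = 0.0476; edgeR). Of 18 ADAM17 substrate genes 14 were tested; 8 rose and 3 fell with LPS in T169A, and 8 rose and 4 fell in B6. Vcam1 (7.13 ± 0.20 in T169A and 6.47 ± 0.19 in B6) and Icam1 (4.35 ± 0.14 and 4.01 ± 0.14), both adhesion molecule genes, rose, and Mertk, a receptor for apoptotic cells, fell (−1.21 ± 0.11 and −1.12 ± 0.11). With 5z7, 1 substrate gene rose and 3 fell in each genotype: Cx3cl1 rose (1.62 ± 0.17 and 1.60 ± 0.17), and Hbegf (−4.80 ± 0.33 and −5.21 ± 0.38), Tnf (−1.15 ± 0.19 and −1.19 ± 0.19) and Tnfrsf1a (−0.24 ± 0.08 and −0.25 ± 0.08) fell, of which Tnfrsf1a was named after its values were seen. None of the genes of these 5 lists was called between the genotypes by edgeR, in any condition. Few of all genes were: 0.0765% higher and 0.138% lower unstimulated, and 0.222% with LPS and 0.161% with LPS/5z7 in either direction.

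**Figure D5:**
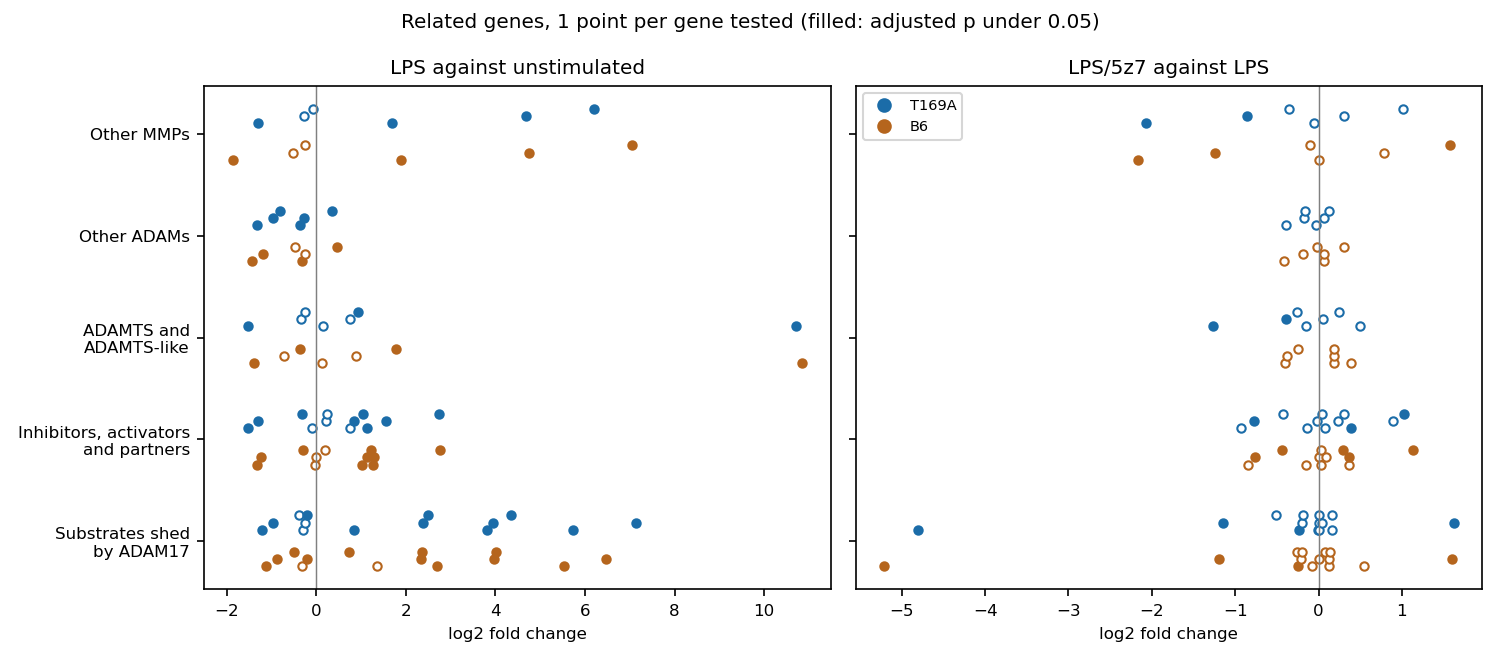
Log2 fold change of every tested gene of 5 related lists with LPS against unstimulated (left) and LPS/5z7 against LPS (right), 1 point per gene, T169A in blue above B6 in brown; filled points have an adjusted p under 0.05. Fitted values above 10 at left are those of Adamts4, which had 1 to 3 counts in unstimulated libraries, and the points near −5 at right are those of Hbegf.

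Markers of other cells moved with some of these results, and their part was not tested. The neutrophil markers, listed because Mmp8, Mmp9 and Mmp25 are known from neutrophils, summed to 52.6 to 85.1 CPM with LPS and 37.2 to 53.8 CPM unstimulated in T169A, and to 51.2 to 63.2 CPM with LPS and 26.2 to 37.5 CPM unstimulated in B6. Osteoclasts also express Mmp9 and Mmp14, and of 6 osteoclast markers 4 were tested. All 6 summed to 113 to 137 CPM with LPS and 10.2 to 12.2 CPM unstimulated in T169A. In B6 they summed to 117 to 124 CPM and 14.1 to 16.6 CPM. Acp5 held most of that sum. Dcstamp had 39 to 165 counts, Ctsk 25 to 122 and Ocstamp 3 to 71, while Calcr and Oscar had at most 5 counts. The 8 fibroblast markers summed to 14.6 to 15.7 CPM with LPS/5z7, 10.3 to 16.8 CPM with LPS and 5.54 to 11.1 CPM unstimulated in T169A. Their sums in B6 were 11.1 to 17.4, 8.43 to 9.48 and 3.72 to 6.54 CPM in these conditions.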

How the data were processed

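Gene counts deposited by the authors were used as they are: whole, unnormalized read counts for 18 libraries in 6 groups. Per the submitters' processing notes, Trim Galore, STAR, featureCounts and the GRCm39 build were used; versions and the strand setting are not given in the sources used here, and the kit was directional per the labels' protocols. Columns carry a group and a running number and were mapped to groups. Symbols came from Ensembl IDs (52029 of 56953 IDs, 99.8% of counts). Genes were filtered with filterByExpr, scaled by TMM and tested with edgeR 4.0.16 (R 4.3.3) by robust quasi-likelihood tests of 12 contrasts in 1 fit of 6 group means, with Benjamini-Hochberg adjustment over 13068 genes and a threshold of 0.05. The scripts were tested on simulated data. Counting error alone puts a floor of 3 counts at 0.0886 to 0.233 CPM. Replicate pairs differed by more than sampling noise (chi-square over degrees of freedom 2.89 to 101).

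All members are named. From each related list, the 2 called genes with the smallest p in each direction and the most abundant gene not called could be named. The members and lists were chosen with earlier results of these data known. Alternatives were DESeq2 1.42.0, DESeq2 size factors, library size alone, other filters, the compared groups alone, a replicate block, a fold minimum of 2 and leaving out each library. Lengths per kb came from GENCODE M21, and 250 bases before each start from RefSeq's promoter table; Mmp9 and Mmp19 had no entry there. Protein sequences were not used here.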

Additional observations from a re-analysis of the deposited data

How the results depend on the processing

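Of the values of single members under the alternatives, 1639 kept their side of the threshold, 40 lost and 25 gained a call, and 6 reversed. A change of sign counted as a reversal only where the main or the alternative value was called. Uncalled values among the 1639 could change sign, as for Mmp12 in B6 with LPS/5z7 against unstimulated (0.1, and −0.07 without library 7). All 6 reversals came with library size alone. They were Adam8 with LPS (−0.22 in T169A and −0.21 in B6) and with LPS/5z7 against unstimulated (−0.33 and −0.34). The others were Mmp19 with LPS in T169A (−0.42) and Mmp8 with LPS in B6 (−0.55). That scaling moves every change by the shift given above. Members called for LPS, for 5z7 and for LPS/5z7 against unstimulated became 3, 1 and 3 in T169A and 3, 2 and 2 in B6 with a 2-fold minimum, which also left 0 of the genotype difference unstimulated. For 5z7 in T169A 5 were called with DESeq2, with the groups alone and with the replicate block. Over all genes the block called 2340 there, against 1703 in the main fit. For 5z7 in B6 3 were called with library size alone and with no filter. Counts of all genes called for 5z7 with DESeq2, the groups alone and no filter are not given here, so these member counts have no share beside them. Between the genotypes DESeq2 called 2 members unstimulated, 1 with LPS and 1 with LPS/5z7, and the groups alone gave 0 unstimulated and 2 with LPS/5z7; the cause was not tested.

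Over all genes, a 2-fold minimum left 3857, 385 and 3113 calls in T169A and 3976, 398 and 3162 in B6 for these effects, and 14, 16 and 13 between the genotypes unstimulated, with LPS and with LPS/5z7. For the genotypes DESeq2 gave 61, 51 and 44 and the groups alone 7, 13 and 223, and no filter gave 39 with LPS/5z7. DESeq2 gave 2 for the LPS/5z7 effect between genotypes. For 5z7, library size alone gave 2707 calls in T169A (2177 higher, 530 lower) and 2855 in B6 (2339 higher, 516 lower), against 850 higher and 853 lower in T169A and 919 higher and 887 lower in B6 with TMM. For LPS it gave 1934 higher and 8106 lower in T169A and 1996 higher and 8484 lower in B6, and for LPS/5z7 against unstimulated 1975 higher and 6999 lower in T169A and 2075 higher and 7334 lower in B6.

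With 1 library left out, genes called ranged from 7465 to 7755 (LPS), 1009 to 1634 (5z7) and 6376 to 6770 (LPS/5z7 against unstimulated) in T169A, and from 7573 to 8609, 1159 to 1275 and 6522 to 7625 in B6. Between the genotypes the ranges were 22 to 46 unstimulated, 16 to 33 with LPS and 15 to 19 with LPS/5z7. Members called ranged from 7 to 8, 2 to 3 and 5 to 6 in T169A, from 7 to 9, 2 to 3 and 5 to 7 in B6, and stayed at 1 for the genotypes unstimulated.

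Sample titles give each replicate letter once in each of the 3 conditions of its genotype, A to C in B6 and D to F in T169A. The titles thus name matched replicates. No paired analysis was possible by the replicate letter because the columns carry none. When libraries of 3 neighbouring running numbers formed a replicate block, 8651 genes were called for LPS, 2340 for 5z7 and 7951 for LPS/5z7 in T169A, and 8788, 2447 and 7921 in B6. Because the columns carry no letter, the sets were treated as sharing only a number. The main tests used no block, so they did not take matching into account. Of 18 pairs within sets 10 correlated above 0.1 (r from −0.05 to 0.46). Among libraries of the same genotype in other conditions, 12 of 18 libraries correlated best with one of their own set. Both are a hint from the data that the sets follow the letters, a link that the labels do not give. With this block, members higher and lower were 7 and 1 in each genotype for LPS, 0 and 5 in each for 5z7, and 6 and 2 in T169A and 5 and 2 in B6 for LPS/5z7 against unstimulated, where Mmp9 (adjusted p = 0.000212) and Mmp12 (0.012) in T169A and Timp1 (0.0152) in B6 gained the call (edgeR). Low counts limit Timp1, Mmp9 and Mmp8.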
